A study of Mus musculus with 18 samples.

Results

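Messenger RNA from stromal cells of the mouse salivary gland was compared between day 2 after an adenovirus had been given and hour 0, before any virus. The comparison rests on 6 of the 18 RNA sequencing libraries of the series, chosen by their titles: the 3 labelled day 2 (replicates 16 to 18) and the 3 labelled hour 0 (replicates 10 to 12). Per the labels, each library came from its own Balb/c mouse of 8 to 12 weeks. The gp38+ cells were sorted from the salivary glands by flow cytometry, and 10 ng of RNA went into each library. The day 2 mice had received a replication-defective adenovirus of type 5 (Ad5), 100000000 to 1000000000 plaque-forming units, through a cannulated submandibular duct 2 days earlier, a procedure used to induce ectopic lymphoid structures in the gland. The hour 0 mice were uninfected, and no mice cannulated without virus were among the samples, so the virus and the procedure cannot be told apart. The libraries of day 1 (replicates 13 to 15, same strain, sort and virus) are set beside these where the time course matters.

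Podoplanin, the gp38 antigen used for the sort, is a surface glycoprotein of fibroblastic stroma and of lymphatic endothelium. Type I interferons act through transcription factors such as IRF9 on the interferon-stimulated response element (ISRE), and inflammatory signals such as TNF and IL-1 act through NF-kB on kappaB elements. Both routes operate in fibroblasts, which then secrete chemokines and cytokines, present antigen on MHC class I and remodel the matrix they had laid down at rest. In inflamed salivary glands such fibroblasts are known to take on features of the stroma of lymph nodes.

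The day 2 libraries held 4398234, 5345881 and 6313619 counts and the hour 0 libraries 8542729, 7153873 and 10619144. Of 55401 gene identifiers, 27525 had enough counts to be tested, and 13529 of these were well counted, with at least 5 counts per 1000000 counts of the library (CPM) in 3 of the 6 libraries. Day 2 had a higher background than hour 0. It was measured on 1505 odorant, vomeronasal and taste receptor genes, which sorted stroma has no known use for. Per kilobase and 10000000 nuclear counts (mitochondrial genes left out) they gave 3.16 to 3.36 counts at day 2 against 1.17 to 1.87 at hour 0. The groups did not overlap in this measure (exact permutation test, two-sided, p = 0.1, the smallest that 3 against 3 can give; 0.145 adjusted over 16 such measures). The share of a gene's day 2 counts that this background could supply had a median of 22.2% for genes with a mean under 5 CPM, 9.29% from 5 to 20 CPM, 3.16% from 20 to 100 CPM and 0.875% above 100 CPM. The largest rises and falls named below are therefore taken from well-counted genes. Some other genes named below are not well counted, among them Ccl19, Ccl21a, Ciart and the leukocyte markers Gzma, Trbc2, Itgam and S100a9. Higher background and time after infection cannot be told apart.

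Promoters of genes that rose are shown for the elements through which interferon and NF-kB act. In each group they are the genes with the largest rises among those that hold a match, so larger rises without a match are not shown. The sequences are the 250 bases before the start site in RefSeq on the build GRCm38.p6, read 5′ to 3′ on the gene's strand, with the match in capitals. The ISRE was searched as GAAANNGAAA and the kappaB element as GGGANNTTCC, on both strands, in windows that also held the first 50 transcribed bases. The patterns were counted separately, so a window can hold both. Oas3 (chr5:120777660-120777909, minus strand), Isg15 (chr4:156200819-156201068, minus strand) and Rsad2 (chr12:26456453-26456702, minus strand) are the type I interferon genes with the largest rises among those with an upstream match.
Oas3: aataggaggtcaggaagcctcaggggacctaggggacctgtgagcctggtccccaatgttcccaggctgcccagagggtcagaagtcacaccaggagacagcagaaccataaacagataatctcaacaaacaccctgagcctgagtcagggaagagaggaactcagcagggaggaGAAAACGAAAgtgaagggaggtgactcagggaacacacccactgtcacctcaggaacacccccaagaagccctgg
Isg15: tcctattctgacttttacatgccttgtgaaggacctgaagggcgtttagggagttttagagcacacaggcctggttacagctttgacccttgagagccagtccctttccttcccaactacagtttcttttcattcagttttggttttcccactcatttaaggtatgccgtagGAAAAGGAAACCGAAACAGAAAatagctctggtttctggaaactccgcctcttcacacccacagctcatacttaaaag
Rsad2: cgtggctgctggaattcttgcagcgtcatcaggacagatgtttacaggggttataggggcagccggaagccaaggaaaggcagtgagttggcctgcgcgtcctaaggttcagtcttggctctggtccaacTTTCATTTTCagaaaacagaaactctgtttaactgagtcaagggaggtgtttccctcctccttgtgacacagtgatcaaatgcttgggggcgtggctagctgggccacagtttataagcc
The Oas3 match begins 75 bases before the start site. The 3 Isg15 matches overlap and begin 78, 72 and 66 bases before it, and the Rsad2 match begins 120 bases before it on the opposite strand. For the kappaB element the genes chosen in this way are the chemokine Cxcl2 (chr5:90903649-90903898, plus strand), the cytokine Il6 (chr5:30012864-30013113, plus strand) and the NF-kB inhibitor Nfkbia (chr12:55492648-55492897, minus strand).
Cxcl2: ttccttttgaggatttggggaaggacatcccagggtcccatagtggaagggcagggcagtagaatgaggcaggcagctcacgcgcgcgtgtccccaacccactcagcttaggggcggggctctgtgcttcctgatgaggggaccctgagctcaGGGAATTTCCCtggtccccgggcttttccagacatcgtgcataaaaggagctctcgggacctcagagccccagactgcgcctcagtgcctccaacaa
Il6: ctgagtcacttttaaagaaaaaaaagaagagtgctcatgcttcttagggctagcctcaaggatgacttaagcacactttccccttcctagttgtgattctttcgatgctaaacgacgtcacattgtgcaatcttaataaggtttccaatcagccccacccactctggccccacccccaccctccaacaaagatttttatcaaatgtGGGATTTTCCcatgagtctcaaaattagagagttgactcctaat
Nfkbia: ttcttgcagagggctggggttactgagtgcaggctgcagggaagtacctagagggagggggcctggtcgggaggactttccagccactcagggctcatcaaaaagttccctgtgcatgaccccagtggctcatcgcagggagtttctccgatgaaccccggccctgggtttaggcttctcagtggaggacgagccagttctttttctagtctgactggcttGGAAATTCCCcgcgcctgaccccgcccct
The Cxcl2 stretch holds 2 overlapping matches that begin 97 and 96 bases before the start, the second on the opposite strand. The Il6 match begins 44 bases before the start, and the Nfkbia match 29 bases before it on the opposite strand. An ISRE match stood in 1131 of all 32851 promoters of this length (3.44%) and a kappaB match in 482 (1.47%). Counted by gene, an ISRE match was found in 14 of the 22 type I interferon-stimulated genes with a promoter in the table, in 10 of 14 interferon-gamma-responsive genes, in 5 of 19 MHC class I genes and in 1 of 20 resting fibroblast genes, against 1079 of 27025 genes in all (3.99%). A kappaB match was found in 5 of 20 cytokine and chemokine genes, in 2 of 14 NF-kB genes and in 0 of 20 resting fibroblast genes, against 441 of 27025 genes (1.63%). A match describes the letters of the window and not a bound site.

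At day 2, many interferon-stimulated genes, chemokines, cytokines and NF-kB feedback genes were higher than at hour 0. Many genes of resting fibroblasts, of contraction and of the secretory epithelium, and some of the basement membrane, were lower. With edgeR's quasi-likelihood test and Benjamini-Hochberg adjustment, 1409 genes were higher and 2652 lower (14.8% of the genes tested, 5.12% higher and 9.63% lower). Among well-counted genes 1185 were higher and 2614 lower (28.1%, 8.76% higher and 19.3% lower), and these shares are the background for the counts below. The median log2 fold change was 0.29 over all genes tested and -0.11 over well-counted genes. The balance of directions depended on the scaling: higher genes made up 34.7% of the calls with TMM, 44.3% with TMM on well-counted genes alone, 52.7% with DESeq2 size factors and 66.7% with library totals. These 3 alternatives moved the median of all genes by 0.11, 0.21 and 0.37. Fold changes are therefore relative to TMM, and groups whose median turned sign or whose balance of calls turned with library totals are given with both values.

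**Figure D1:**
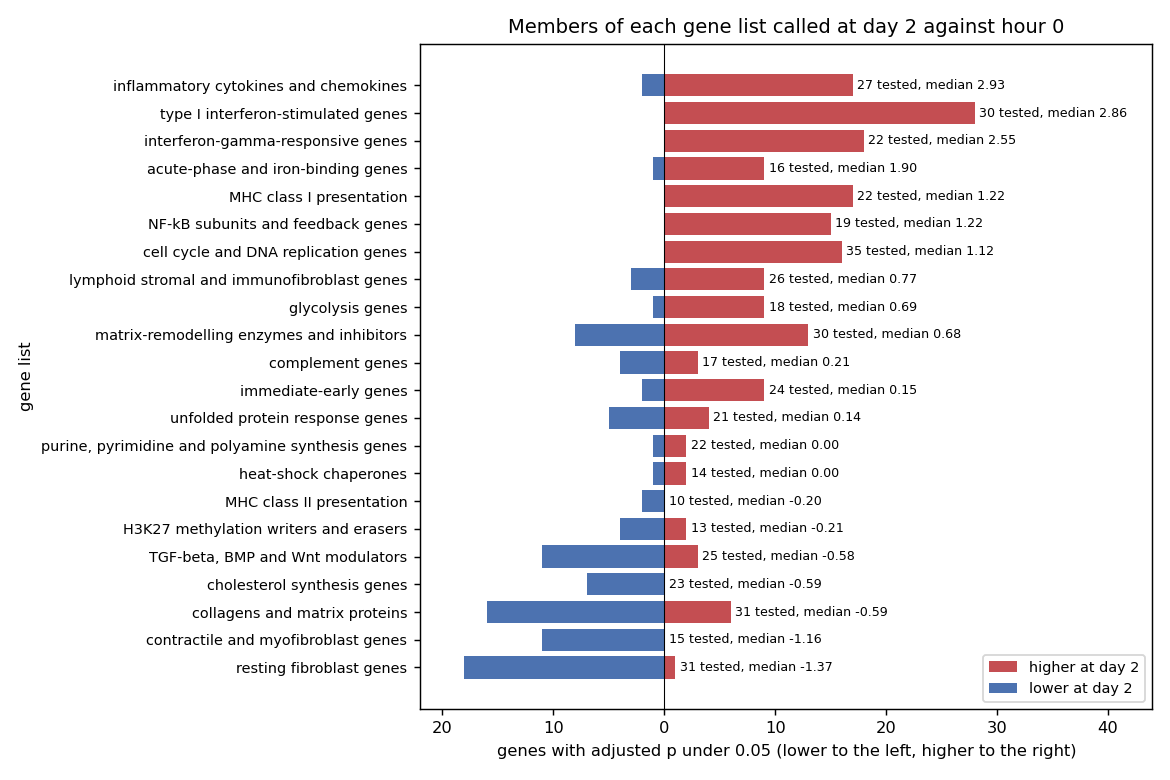
Members of 22 gene groups that were called higher (right) or lower (left) at day 2 than at hour 0 by edgeR at an adjusted p under 0.05; the horizontal axis counts genes, and the number tested and the median log2 fold change stand beside each bar. The bar of type I interferon-stimulated genes holds 28 higher and 0 lower of 30, and that of resting fibroblast genes 1 higher and 18 lower of 31.

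Of 30 type I interferon-stimulated genes tested, 28 were higher at day 2 and 0 lower, with a median log2 fold change of 2.86. Their summed level was 1037 to 1114 CPM over the hour 0 libraries and 5773 to 6832 over the day 2 libraries. Rsad2 (ENSMUSG00000020641, chromosome 12, 26442746 to 26456452 on GRCm38), which encodes the antiviral enzyme viperin, gave 29.9, 35.0 and 30.3 CPM at hour 0 and 709.6, 589 and 453 at day 2, a log2 fold change of 4.20 ± 0.24 (SE, adjusted p = 3.40e-13). Mx1, a dynamin-like GTPase that restricts viruses, gave 15.2, 17.4 and 12.6 CPM and then 410.1, 285 and 257, a change of 4.40 ± 0.28 (SE, adjusted p = 1.89e-12). The lowest day 2 library stood above the highest hour 0 library for both genes. Isg15, a ubiquitin-like modifier, went from 7.84, 3.62 and 9.27 CPM to 137, 125 and 142 (4.26 ± 0.28 SE, adjusted p = 4.21e-12). Irf7, the transcription factor that amplifies interferon production, went from 42.9, 48.7 and 44.6 to 453, 413 and 535 (3.36 ± 0.22 SE, adjusted p = 4.01e-12). Oas3, a sensor of double-stranded RNA, rose from 1.35, 2.83 and 0.662 CPM to 60.7, 48.8 and 60.0. Its log2 fold change of 5.18 ± 0.41 (SE, adjusted p = 1.41e-10) ranged between 4.77 without hour 0 replicate 12 and 5.82 without hour 0 replicate 11. The abundant Ifit3 gave 85.6, 95.9 and 67.4 and then 693, 586 and 746 CPM (3.02 ± 0.23 SE, adjusted p = 5.48e-11); its near-identical copy Ifit3b can share reads with it. Ifitm3, a membrane protein that blocks viral entry, showed the smallest rise of the members described here, from 168, 164 and 166 CPM to 466, 367 and 433 (1.35 ± 0.22 SE, adjusted p = 4.35e-05). Irf9 (0.47, adjusted p = 0.0688) and Ifit1bl1 (1.24, adjusted p = 0.298) were the members not called.

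**Figure D2:**
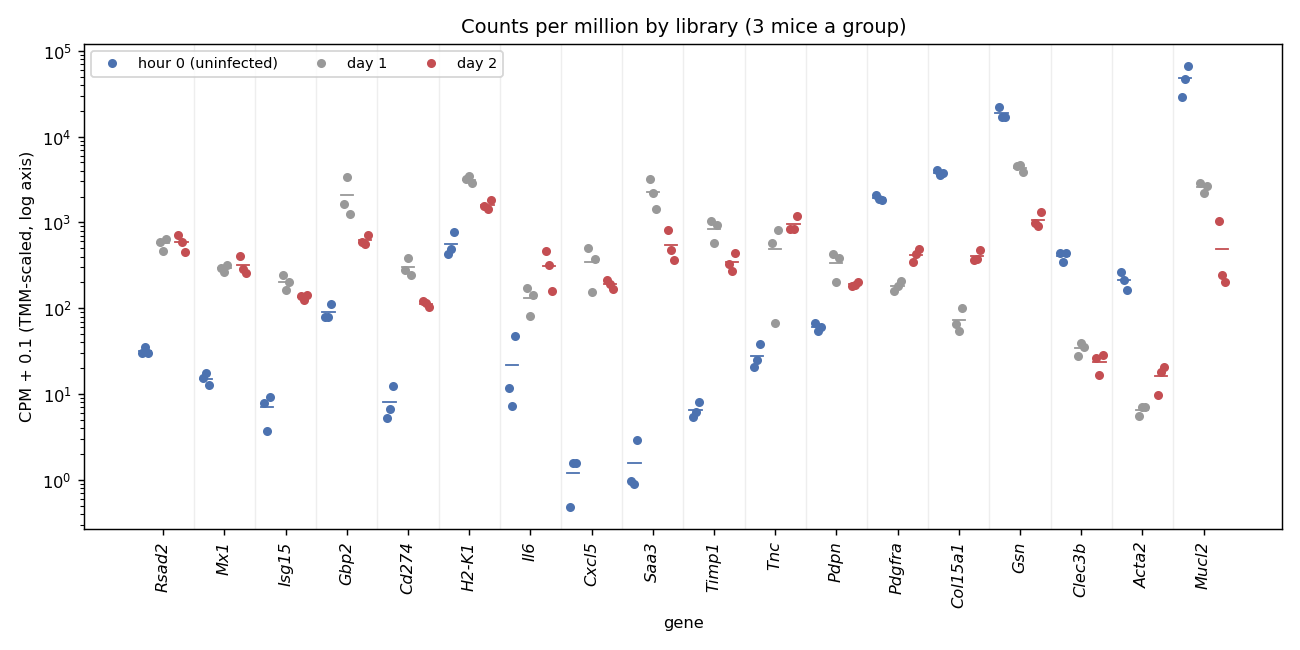
TMM-scaled CPM plus 0.1 (log axis) of 18 genes in each library at hour 0, day 1 and day 2; points are libraries and bars are group means. Rsad2 sits at 29.9 to 35.0 CPM at hour 0 and at 453 to 710 at day 2, and Mucl2 moves the other way, from 29182 or more to 1034 or less.

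Interferon-gamma-responsive genes were raised in the same way: 18 of 22 were higher and 0 lower, with a median of 2.55. Cxcl10, the chemokine for T cells that carry CXCR3, gave 9.77, 22.7 and 16.8 CPM at hour 0 and 319.5, 267 and 254 at day 2 (4.10 ± 0.32 SE, adjusted p = 1.10e-10). The guanylate-binding protein gene Gbp2 gave 78.9, 79.2 and 113 and 593, 555 and 717 CPM (2.78 ± 0.32 SE, adjusted p = 1.00e-07). Gbp3 gave 84.8, 99.9 and 110.2 and 445, 471 and 587 (2.35 ± 0.23 SE, adjusted p = 5.23e-09). Each of these genes had its 3 day 2 libraries close together and clear of hour 0. Tgtp1, an immunity-related GTPase, was nearly uncounted at hour 0 (1.06, 0.113 and 0.165 CPM) and gave 22.1, 19.2 and 28.1 CPM at day 2. Its fold change of 5.65 ± 0.53 (SE, adjusted p = 2.99e-09) lay between 5.20 without hour 0 replicate 12 and 7.21 without hour 0 replicate 10. Nos2, the inducible nitric oxide synthase, gave 2.13, 0.793 and 4.22 CPM and then 72.9, 68.5 and 53.6 (4.71 ± 0.33 SE, adjusted p = 1.10e-11; between 4.33 without hour 0 replicate 11 and 5.43 without hour 0 replicate 12). Ido1, Irf8, Ciita and Serping1 were not called.

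In the MHC class I pathway 17 of 22 genes rose and 0 fell, with a median of 1.22. Nlrc5, the transactivator of class I genes, had the largest change, from 20.6, 16.9 and 41.9 CPM to 294, 289.9 and 229 (3.35 ± 0.32 SE, adjusted p = 4.10e-09). The class I heavy chain H2-K1 gave 429, 487 and 776 CPM at hour 0 and 1554, 1428 and 1842 at day 2 (1.51 ± 0.21 SE, adjusted p = 2.05e-06). H2-D1 gave 630.0, 654 and 920.5 and 1710, 1613 and 1977 (1.27 ± 0.19 SE, adjusted p = 9.04e-06). The light chain B2m, which pairs with them, gave 501, 451 and 653 CPM and 1162, 936 and 1066 (0.98 ± 0.20 SE, adjusted p = 4.82e-04). The peptide transporter Tap1 (1.80) and the immunoproteasome subunit Psmb8 (1.87) rose as well. The heavy chains H2-Q6 (16.6, 26.7 and 61.6 CPM to 185, 191 and 221) and H2-Q7 (18.1, 20.1 and 47.7 to 271, 258 and 304) rose by 2.50 ± 0.29 and 3.27 ± 0.26 (SE). Both belong to a family of near-identical genes whose reads may be shared. Without hour 0 replicate 12, the hour 0 library with the highest values of both, these 2 changes were 3.20 and 3.86. The chaperones Pdia3, Calr and Canx, the TAP-binding protein Tapbpl and the trimming peptidase Erap1 were not called. No gene of the MHC class II pathway rose, and 2 of 10 fell. Cd74, the invariant chain, gave 14.0, 21.2 and 38.8 CPM and then 6.01, 7.27 and 16.8 (-1.28 ± 0.44 SE, adjusted p = 0.0450; between -1.89 without day 2 replicate 18 and -0.78 without hour 0 replicate 12, where its adjusted p was 0.357). Ifi30, a lysosomal thiol reductase, gave 44.6, 40.8 and 28.8 and 20.4, 20.4 and 14.6 (-1.04 ± 0.25 SE, adjusted p = 0.0032). With library totals as the scaling neither was called. The median of the class II genes was -0.20 with TMM and 0.18 with library totals.

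Of 27 cytokine and chemokine genes tested, 17 were higher at day 2 and 2 lower, with a median of 2.93. Il6 (ENSMUSG00000025746, chromosome 5, 30013114 to 30019981), a cytokine of the acute phase, gave 11.5, 7.14 and 47.2 CPM at hour 0 and 469, 315 and 158 at day 2, a log2 fold change of 3.82 ± 0.51 (SE, adjusted p = 1.47e-06). Its highest hour 0 library was replicate 12, and the change lay between 3.41 without hour 0 replicate 11 and 5.06 without hour 0 replicate 12. The neutrophil chemokine Cxcl5 gave 0.387, 1.47 and 1.49 CPM and then 216, 191 and 166 (7.40 ± 0.44 SE, adjusted p = 6.85e-13). The monocyte chemokine Ccl7 gave 3.10, 4.19 and 8.77 and 218, 148 and 156 (5.00 ± 0.36 SE, adjusted p = 2.80e-11). Its relative Ccl2 gave 15.1, 13.8 and 58.6 and 457, 370.0 and 382 (3.78 ± 0.40 SE, adjusted p = 3.19e-08; between 3.45 without hour 0 replicate 11 and 4.80 without hour 0 replicate 12). These 3 chemokines separated the groups without overlap, as did 39.5% of all genes tested and 51.8% of well-counted genes. For Cxcl5 and Ccl7 this is no separate result, because the 15 largest rises were picked among genes without overlap. The 3 hour 0 libraries held 2 counts of Ccl5 in all and the 3 day 2 libraries 564, a ratio of 358 (95% interval for counting error alone, 98.6 to 2962). Cxcl2 gave 1.35, 0.113 and 3.97 CPM and then 58.4, 50.6 and 27.7 (4.54 ± 0.64 SE, adjusted p = 3.35e-06; between 4.06 without hour 0 replicate 11 and 5.85 without hour 0 replicate 12). Ptgs2, the inducible cyclooxygenase, rose by 3.98. Cxcl14, a chemokine expressed constitutively by many epithelia and fibroblasts, fell from 2115, 1771 and 1433 CPM to 746, 526 and 868 (-1.31 ± 0.21 SE, adjusted p = 2.40e-05). The membrane-bound chemokine Cx3cl1 fell from 127, 106 and 98.0 to 54.7, 37.8 and 39.6 (-1.33 ± 0.19 SE, adjusted p = 3.92e-06). Cxcl12, the homeostatic chemokine of stroma, was not called (423, 329.9 and 409 CPM, then 344, 336 and 331; -0.20 ± 0.19 SE, adjusted p = 0.599). Ccl11 was not called either (0.45 ± 0.23, adjusted p = 0.247), nor were Tnf, Il1a, Il11, Ccl3, Ccl4 and Il33.

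Among NF-kB subunits and feedback genes 15 of 19 were higher and 0 lower, with a median of 1.22. Tnfaip3, which encodes the deubiquitinase A20 and limits NF-kB signalling, gave 41.0, 41.5 and 42.6 CPM at hour 0 and 602, 520.3 and 291 at day 2 (3.50 ± 0.33 SE, adjusted p = 4.12e-09). Nfkbia, the inhibitor IkB-alpha, gave 92.7, 89.1 and 100.3 and 329, 297 and 229 CPM (1.60 ± 0.20 SE, adjusted p = 4.39e-07). Its relative Nfkbie gave 20.8, 21.4 and 34.5 and 102, 102 and 67.1 (1.82 ± 0.30 SE, adjusted p = 4.17e-05). Nfkbiz, an atypical member of the family, gave 196, 174 and 242 and 619, 493 and 341 (1.25 ± 0.23 SE, adjusted p = 2.05e-04). Within day 2, replicate 18 had the lowest value of Tnfaip3, Nfkbia, Nfkbie, Nfkbiz and Il6. The subunits themselves moved less: Nfkb1 rose by 0.64, Nfkb2 by 0.71 and Relb by 0.83, and Rela (0.48, adjusted p = 0.0801) was not called. The signalling adaptor Traf1 rose from 2.22, 4.19 and 1.08 CPM to 16.1, 13.1 and 16.3 (2.62 ± 0.42 SE, adjusted p = 2.89e-05). Icam1, an adhesion molecule often induced by this pathway, gave 82.3, 81.0 and 137 CPM and 107, 112 and 84.5 and was not called (0.01 ± 0.21 SE, adjusted p = 0.991). The adhesion molecule Vcam1 gave 85.4, 71.9 and 84.4 and 149, 129 and 140.1 (0.79 ± 0.24 SE, adjusted p = 0.0231). Of 6 fits that each left out 1 library, Vcam1 was not called in 5 (adjusted p up to 0.0930 without hour 0 replicate 11), Nfkb1 in 5 (0.143 without day 2 replicate 17) and Nfkb2 in 4 (0.143 without day 2 replicate 16).

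Among acute-phase and iron-binding genes, which held the largest rise of the 15 named by size (Saa3), 9 of 16 were higher and 1 was lower, with a median of 1.90. Saa3 (ENSMUSG00000040026, chromosome 7, 46711998 to 46715700), a serum amyloid A that is made outside the liver, gave 0.871, 0.793 and 2.81 CPM at hour 0 and 806, 479.9 and 367 at day 2 (8.45 ± 0.49 SE, adjusted p = 3.40e-13; between 8.07 without day 2 replicate 16 and 9.34 without hour 0 replicate 12). Lcn2, which binds bacterial siderophores and so withholds iron, gave 1.35, 1.59 and 4.80 and 220.4, 139 and 113 CPM (5.87 ± 0.46 SE, adjusted p = 8.95e-11; between 5.55 without day 2 replicate 16 and 6.73 without hour 0 replicate 12). The hour 0 libraries held 3 counts of Saa2 and the day 2 libraries 314, a ratio of 133 (counting interval 45.0 to 648), with reads that the near-identical Saa1 may share. In these 3 genes the order within day 2 was the same, replicate 16 highest and replicate 18 lowest. Steap4, a metalloreductase, fell from 445, 441 and 470.2 CPM to 172, 182 and 179.7 (-1.35 ± 0.20 SE, adjusted p = 9.99e-06). Cp, the copper carrier ceruloplasmin, was not called (-0.50, adjusted p = 0.0775). Complement genes split: 3 of 17 were higher and 4 lower, and with library totals 4 were higher and 3 lower. Cfb, the protease of the alternative pathway, rose from 14.6, 10.3 and 7.78 CPM to 65.2, 64.3 and 107 (2.86 ± 0.36 SE, adjusted p = 7.19e-07). C4b rose from 152, 121 and 185 to 292, 365 and 468 (1.30 ± 0.30 SE, adjusted p = 0.0021), and C2 by 0.80. The first-component protease C1s1 fell from 1038, 942 and 1084 CPM to 482, 404 and 480.0 (-1.17 ± 0.23 SE, adjusted p = 3.58e-04). The regulator Cd55 fell from 28.4, 26.2 and 32.7 to 7.36, 11.3 and 8.66 (-1.67 ± 0.31 SE, adjusted p = 2.11e-04). The protease C1ra changed by -0.55 (not called in 5 of 6 fits that left out 1 library, with an adjusted p of 0.218 without day 2 replicate 17). C3 gave 3967, 3531 and 5084 CPM and then 2837, 2214 and 3078 and was not called (-0.63 ± 0.27 SE, adjusted p = 0.128).

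The sort antigen and the lineage receptor moved in opposite directions. Pdpn, which encodes gp38, rose from 66.7, 54.6 and 60.0 CPM to 180.1, 187 and 204 (1.65 ± 0.22 SE, adjusted p = 1.56e-06). Pdgfra, the growth factor receptor that marks fibroblasts, fell from 2088, 1855 and 1823 CPM to 349.6, 428 and 487 (-2.19 ± 0.18 SE, adjusted p = 3.01e-10). The intermediate filament gene Vim rose from 874, 699 and 966 CPM to 1910, 1992 and 2036 (1.23 ± 0.18 SE, adjusted p = 5.00e-06). Pdgfrb (-0.14 ± 0.19, adjusted p = 0.722) was not called. Of 10 genes that define fibroblasts, all were well counted in both groups, 2 rose (Vim and Pdpn) and 4 fell (Pdgfra, Lum, Dcn and Col1a2). Col1a2 lost its call in 4 of 6 fits that left out 1 library (adjusted p = 0.189 without day 2 replicate 16). The median of these 10 genes was -0.24 with TMM and 0.13 with library totals, where 3 were higher and 3 lower. In bulk RNA, fewer cells of a type and less RNA per cell cannot be told apart, here and below.

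Among genes of resting fibroblasts 18 of 31 were lower and 1 higher, with a median of -1.37. With library totals the counts were also 18 and 1. Gsn (ENSMUSG00000026879, chromosome 2, 35256380 to 35307892), the actin-severing protein gelsolin, fell from 22191, 16703 and 16883 CPM to 975, 897 and 1313, a log2 fold change of -4.13 ± 0.25 (SE, adjusted p = 6.85e-13). Smoc2, a matricellular protein, fell from 1240, 917 and 1106 to 66.7, 52.8 and 71.8 (-4.09 ± 0.26 SE, adjusted p = 1.72e-12). Clec3b, which encodes tetranectin, fell from 443, 348 and 438 to 26.1, 16.7 and 28.1 (-4.12 ± 0.23 SE, adjusted p = 3.40e-13). For these genes every day 2 library lay far below the lowest hour 0 library. Col15a1, a basement-membrane collagen of fibroblasts, fell from 4113, 3526 and 3807 CPM to 360.0, 379 and 473 (-3.24 ± 0.24 SE, adjusted p = 4.47e-11). The adventitial fibroblast markers Pi16 (-2.62) and Cd34 (-2.43), and the small leucine-rich proteoglycans Lum (-1.84) and Dcn (-1.62) fell as well. Ly6a, the stem cell antigen Sca-1 and itself induced by interferon, was the member that rose, from 84.4, 75.3 and 88.1 CPM to 288, 256 and 358 (1.86 ± 0.21 SE, adjusted p = 9.98e-08). The mesenchymal transcription factor genes Twist1, Twist2, Prrx1, Ebf1 and Tcf21 were not called.

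**Figure D3:**
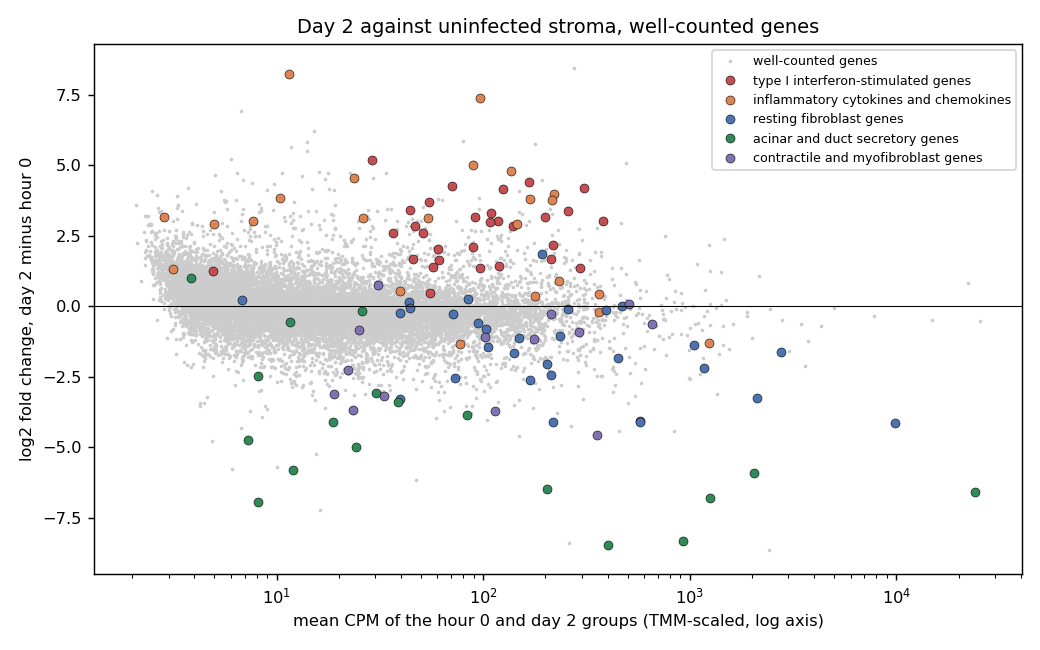
Log2 fold change of day 2 against hour 0 (vertical axis) by mean TMM-scaled CPM (log axis) for the 13529 well-counted genes, with 5 gene groups in colour. Type I interferon genes lie above 0 across the range of levels, and Gsn, among the genes at the highest levels, lies at -4.13.

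Of 31 collagens and matrix proteins, all well counted, 6 rose and 16 fell, with a median of -0.59. Among the largest falls were basement-membrane genes. The laminin chain Lama2 gave 2776, 2514 and 2007 CPM at hour 0 and 284, 280.4 and 280.3 at day 2 (-3.11 ± 0.19 SE, adjusted p = 6.85e-13). Perlecan, encoded by Hspg2, gave 6605, 5903 and 5022 and 1184, 1240 and 1637 (-2.11 ± 0.19 SE, adjusted p = 1.41e-09). Col4a1 gave 5373, 4610 and 3663 and 1431, 1248 and 1864 (-1.59 ± 0.25 SE, adjusted p = 2.08e-05). Of the fibrillar collagens described here 1 was called. Col1a2 fell from 5865, 4865 and 5323 CPM to 2523, 3058 and 4376 (-0.69 ± 0.22 SE, adjusted p = 0.0277). Its partner chain Col1a1 was not called and gave 5545, 4784 and 4860 CPM and 4064, 4497 and 6128 (-0.05 ± 0.22 SE, adjusted p = 0.927). Col3a1 was not called either (-0.33 ± 0.24, adjusted p = 0.451). Some matricellular proteins and proteins of provisional matrix were among the 6 that rose. The list members Fn1, Sparc and Thbs2 were not among them, and the matricellular Smoc2, described above, fell. Tenascin C, encoded by Tnc, rose from 20.6, 24.8 and 37.8 CPM to 835, 829 and 1183 (5.09 ± 0.49 SE, adjusted p = 4.57e-09). Col12a1 rose from 69.1, 94.8 and 64.3 to 408, 407 and 699.8 (2.73 ± 0.30 SE, adjusted p = 5.97e-08). The other members that rose were Thbs1 (2.18), Postn (1.89), Col18a1 (0.96) and Vcan (0.83). With library totals 6 were still higher and 12 lower.

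Genes that remodel matrix were divided, with 13 of 30 higher and 8 lower. Timp1, an inhibitor of metalloproteinases, rose from 5.32, 6.00 and 7.94 CPM to 326, 272 and 445 (5.75 ± 0.42 SE, adjusted p = 3.43e-11), while Timp2 (-2.03) and Timp3 (-2.35) fell. Stromelysin 1, encoded by Mmp3, rose from 259, 234 and 194 CPM to 1053, 982 and 1803 (2.48 ± 0.30 SE, adjusted p = 3.66e-07). The gelatinase Mmp2 fell from 1154, 1003 and 1127 to 542, 517 and 582 (-1.00 ± 0.19 SE, adjusted p = 2.92e-04). The hyaluronan synthase Has1 rose from 20.2, 13.0 and 27.1 CPM to 352, 350.4 and 209.7 (3.91 ± 0.41 SE, adjusted p = 2.44e-08). The collagenase Mmp13 was seen in 1 of 3 hour 0 libraries (0, 1.02 and 0 CPM) and in all 3 at day 2 (12.2, 7.51 and 15.5). Its change of 5.22 ± 0.88 lay between 4.57 without hour 0 replicate 12 and 9.84 without hour 0 replicate 11. The plasminogen activator Plau fell by 2.79, and its receptor Plaur (2.72; between 2.17 without hour 0 replicate 10 and 3.45 without hour 0 replicate 12) rose. Prg4, which encodes the lubricant lubricin, was among the 15 largest rises, from 5.13, 4.76 and 5.13 CPM to 126, 133 and 259 (5.10 ± 0.40 SE, adjusted p = 1.18e-10).

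No contractile or myofibroblast gene rose, and 11 of 15 fell, with a median of -1.16. Acta2, smooth muscle actin, fell from 261, 213 and 163 CPM to 9.77, 17.8 and 20.7 (-3.71 ± 0.44 SE, adjusted p = 2.16e-07). The smooth muscle myosin Myh11 fell from 899.7, 669.8 and 474 to 22.5, 27.7 and 36.4 (-4.55 ± 0.41 SE, adjusted p = 1.21e-09). Calponin, Cnn1, fell from 59.3, 43.8 and 27.4 to 2.55, 3.94 and 3.44 (-3.70 ± 0.59 SE, adjusted p = 2.31e-05). These genes also mark smooth muscle and pericytes. Of 11 pericyte and mural genes, Abcc9 (148, 167 and 199.9 CPM, then 30.3, 28.1 and 48.6), Cspg4 and Ndufa4l2 (between -2.15 without day 2 replicate 18 and -1.19 without day 2 replicate 17) fell, Mcam rose (2.31; between 2.04 without hour 0 replicate 10 and 3.02 without hour 0 replicate 12) and 7 were not called. The summed level of the mural genes was 904 to 925 CPM at hour 0 and 524 to 769 at day 2. That of the epithelial and myoepithelial genes, described below, was 672 to 1099 CPM at hour 0 and 238 to 363 at day 2. The part of mural or of myoepithelial cells in the fall of the contractile genes was not tested. With library totals 7 contractile genes were lower and 1 higher.

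Among modulators of TGF-beta, BMP and Wnt signalling 3 of 25 rose and 11 fell. The Wnt agonists Rspo3 (109.8, 88.8 and 92.7 CPM, then 15.2, 17.9 and 16.7; -2.55 ± 0.20 SE, adjusted p = 8.95e-11) and Rspo1 (31.9, 39.3 and 26.6, then 7.51, 6.20 and 4.69; -2.42 ± 0.35 SE, adjusted p = 6.06e-06) fell. The ligand Bmp4 fell from 80.6, 65.6 and 58.0 CPM to 13.8, 19.7 and 8.76 (-2.27 ± 0.25 SE, adjusted p = 7.45e-08). The receptors Tgfbr2 (-1.06 ± 0.19 SE, adjusted p = 1.59e-04) and Tgfbr3 (-0.68 ± 0.16 SE, adjusted p = 0.0027) fell less. Tgfbi, a matrix protein induced by TGF-beta, fell from 683, 474 and 534 to 144, 105 and 115 (-2.21 ± 0.21 SE, adjusted p = 4.82e-09). Among the members that rose were the ligands Tgfb1 (0.84) and Inhba (1.69). The calls of Tgfb1 (adjusted p = 0.0754 without day 2 replicate 17) and Inhba (0.0524 without hour 0 replicate 10) depended on single libraries. With library totals 8 fell and 3 rose.

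Genes of lymphoid stroma and of immunofibroblasts were mixed, with 9 of 26 higher and 3 lower. Cxcl13 (ENSMUSG00000023078, chromosome 5, 95956951 to 95961068), the chemokine that draws B cells into follicles, gave 16.6, 13.4 and 10.1 CPM at hour 0 and 120.5, 76.3 and 76.8 at day 2 (2.77 ± 0.31 SE, adjusted p = 7.94e-08). The T-zone chemokines were at very low levels: Ccl19 gave 0.290, 1.25 and 1.08 and 4.21, 2.15 and 2.71 CPM (1.78 ± 0.87 SE, adjusted p = 0.206). Ccl21a, whose copies are near-identical, gave 0.290, 0.113 and 0 and 1.20, 0.239 and 0.626. Neither was called. The survival factors Il7 (1.64, 4.76 and 0.414 CPM, then 4.81, 3.46 and 4.17; 0.88 ± 0.77 SE, adjusted p = 0.554) and Tnfsf13b, which encodes BAFF (6.58, 6.57 and 9.43, then 6.46, 9.42 and 9.18; 0.15 ± 0.32 SE, adjusted p = 0.836), were not called. Il4ra, the receptor chain shared by IL-4 and IL-13, rose from 112, 88.6 and 142 CPM to 374, 392 and 372 (1.73 ± 0.25 SE, adjusted p = 5.05e-06). Ch25h, which starts the synthesis of the oxysterol that guides B cells, rose from 2.81, 0.680 and 6.78 CPM to 39.5, 33.2 and 29.1 (3.24 ± 0.40 SE, adjusted p = 4.80e-07; between 2.80 without hour 0 replicate 11 and 4.23 without hour 0 replicate 12). Cyp7b1, the next enzyme, rose by 2.50. Clu, secreted by follicular stroma, rose from 8.22, 8.04 and 14.3 to 124, 39.1 and 58.9 (2.84 ± 0.41 SE, adjusted p = 4.31e-06; between 2.26 without day 2 replicate 16 and 3.18 without hour 0 replicate 12). Enpp2, autotaxin, fell from 1097, 898 and 1010 CPM to 204, 200.2 and 230.1 (-2.24 ± 0.21 SE, adjusted p = 2.87e-09). Fap, a protease of activated fibroblasts, changed by -1.50 and Ltbr, the lymphotoxin receptor, by -0.71 (adjusted p = 0.0541 without hour 0 replicate 11).

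Enzymes that write and erase methylation of lysine 27 of histone H3 changed little. Of 13 tested, 2 were higher and 4 lower, all by a log2 fold change of 1.04 or less in size. The median of -0.21 turned to 0.16 with library totals, where 2 were higher and 1 lower. Kdm6b, a demethylase of this residue, gave 216, 214 and 255 CPM at hour 0 and 427, 422 and 227 at day 2 (0.65 ± 0.21 SE, adjusted p = 0.0354). Its day 2 replicate 18 lay within the range of hour 0. Leaving out any 1 of the hour 0 libraries or day 2 replicates 16 or 17 took its adjusted p to between 0.051 and 0.204. The related demethylase Kdm6a (-0.25 ± 0.18, adjusted p = 0.441) and the methyltransferase Ezh2 (13.4, 18.4 and 18.4 CPM, then 19.4, 17.4 and 19.4; 0.16 ± 0.27 SE, adjusted p = 0.783) were not called. Ezh1 (-0.75 ± 0.24 SE, adjusted p = 0.0279) and Phf1, a Polycomb-like subunit (39.8, 57.0 and 51.3 CPM, then 28.7, 22.8 and 20.6; -1.04 ± 0.19 SE, adjusted p = 1.68e-04), fell. The histone-binding subunits Rbbp4 and Rbbp7 changed by -0.61 and -0.65. Aebp2 rose by 0.59. Of 6 fits that left out 1 library, Ezh1 was not called in 5 (adjusted p up to 0.127 without day 2 replicate 16), Rbbp4 in 3 (0.0944 without day 2 replicate 17), Rbbp7 in 2 (0.0586 without day 2 replicate 16) and Aebp2 in 4 (0.188 without hour 0 replicate 10).

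Of 35 genes of the cell cycle and DNA replication 16 were higher and 0 lower, with a median of 1.12; 6 of the 35 were not well counted. Mki67, the proliferation antigen Ki-67, gave 8.32, 12.3 and 24.0 CPM at hour 0 and 43.1, 45.8 and 51.7 at day 2 (1.65 ± 0.30 SE, adjusted p = 1.23e-04). Topoisomerase Top2a gave 5.13, 19.1 and 13.6 and 27.6, 31.4 and 35.8 (1.33 ± 0.40 SE, adjusted p = 0.0199; not called in 3 of 6 fits that left out 1 library, with an adjusted p of 0.138 without hour 0 replicate 10). The ribonucleotide reductase subunit Rrm2 gave 1.16, 0.680 and 1.16 and 5.56, 3.94 and 6.99 (2.43 ± 0.49 SE, adjusted p = 5.17e-04). The inhibitor Cdkn1a, which encodes p21, rose too, from 6.77, 8.04 and 10.2 CPM to 83.4, 69.6 and 52.1 (3.03 ± 0.29 SE, adjusted p = 4.97e-09). The replicative helicase gene Mcm4 (-0.52, adjusted p = 0.219) and Pcna (0.26) were not called.

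Immediate-early genes, switched on within minutes of a stimulus and many of them transcription factors, held both movers and unmoved members. Fos gave 2270, 1804 and 2273 CPM at hour 0 and 2033, 1773 and 1231 at day 2 (-0.33 ± 0.21 SE, adjusted p = 0.374). Jun and Fosb were not called (-0.48 and -0.11). In this group 9 of 24 were higher and 2 lower, the 2 being Jund (-0.69) and Egr1 (-0.63), neither of which was called with library totals. Egr1 lost its call in 4 of 6 fits that left out 1 library (adjusted p = 0.284 without day 2 replicate 18). The orphan nuclear receptor Nr4a2 rose from 25.5, 30.4 and 29.0 CPM to 237, 200.5 and 120.4 (2.71 ± 0.23 SE, adjusted p = 6.51e-10). Fosl1, an AP-1 subunit, rose from 2.03, 4.98 and 9.43 to 38.9, 33.8 and 23.6 (2.52 ± 0.38 SE, adjusted p = 1.08e-05; between 2.13 without hour 0 replicate 10 and 3.21 without hour 0 replicate 12).

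In metabolism, 9 of 18 glycolysis genes rose and 1 fell. Hexokinase 2, Hk2, gave 31.7, 36.2 and 41.6 CPM at hour 0 and 335, 334 and 226 at day 2 (3.03 ± 0.23 SE, adjusted p = 7.08e-11). The glycolytic activator Pfkfb3 gave 14.4, 16.3 and 16.6 and 119.6, 93.7 and 69.7 (2.58 ± 0.25 SE, adjusted p = 4.10e-09). Pyruvate kinase, Pkm, gave 151, 98.1 and 146 and 402, 331 and 484 (1.63 ± 0.19 SE, adjusted p = 1.78e-07). The muscle phosphofructokinase Pfkm fell by 1.01. No gene of cholesterol synthesis or uptake rose and 7 of 23 fell. Among these was the regulator Srebf2 (181, 164 and 176 CPM, then 70.3, 70.5 and 72.2; -1.29 ± 0.18 SE, adjusted p = 2.96e-06). Of 22 genes of nucleotide and polyamine synthesis 2 rose, Odc1 (1.87 ± 0.23 SE, adjusted p = 3.05e-07) and Ctps (1.48 ± 0.22 SE, adjusted p = 6.23e-06), and 1 fell, Gart (-0.75; adjusted p = 0.0782 without day 2 replicate 17). Heat-shock chaperones ranged from -0.75 to 1.35, with 2 of 14 higher (Hspb1 and Bag3) and 1 lower (Dnaja1). Library totals gave 6 higher and 0 lower and moved the median from 0.00 to 0.38. Dnaja1 lost its call in 3 of 6 fits that left out 1 library (adjusted p up to 0.171 without hour 0 replicate 12). Bag3 (0.70) lost its call without day 2 replicate 16 (0.40, adjusted p = 0.178). Unfolded protein response genes ranged from -1.15 to 1.30, with 4 of 21 higher and 5 lower, and with library totals 8 were higher and 3 lower. Ddit3, the stress transcription factor CHOP, rose from 16.7, 19.3 and 25.9 CPM to 48.5, 56.8 and 47.3 (1.30 ± 0.26 SE, adjusted p = 5.20e-04). The chaperone BiP, encoded by Hspa5, was not called (461, 479.8 and 561 CPM, then 762, 590.0 and 816; 0.53 ± 0.22 SE, adjusted p = 0.108).

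The 15 largest falls were salivary secretory genes but for 1, Adra2c, an adrenergic receptor gene; a gp38+ sort should leave such epithelium behind. Acinar and duct secretory genes took 4.28% to 9.14% of all counts at hour 0 and 0.0471% to 0.199% at day 2. Of 23 such genes 15 were lower and 0 higher, with a median of -3.87. Mucl2 (ENSMUSG00000036925, chromosome 15, 103895855 to 103899312), a mucin-like secretory protein, gave 29182, 47321 and 66438 CPM at hour 0 and 1034, 246 and 204 at day 2 (-6.59 ± 0.58 SE, adjusted p = 8.80e-10; between -7.73 without day 2 replicate 16 and -6.22 without day 2 replicate 18). Car6, the salivary carbonic anhydrase, gave 2511, 4024 and 5557 and 131, 46.4 and 25.6 CPM (-5.91 ± 0.48 SE, adjusted p = 1.65e-10; between -6.81 without day 2 replicate 16 and -5.51 without day 2 replicate 18). Smgc, a submandibular mucin-like product, gave 43.9, 40.8 and 55.8 and 1.20, 1.19 and 1.88 (-5.00 ± 0.99 SE, adjusted p = 4.05e-04). The kallikreins (Klk1, Klk1b5, Klk1b9, Klk1b11, Klk1b26) and secretoglobins (Scgb1b27, Scgb2b26, Scgb2b27) among the 15 largest falls belong to families of near-identical genes, so their separate values are uncertain. The structural epithelial and myoepithelial genes fell less, 13 of 20 lower and 0 higher, with a median of -1.66. Krt14, a basal keratin, gave 105, 97.4 and 117 CPM and 26.9, 28.4 and 46.1 (-1.65 ± 0.42 SE, adjusted p = 0.0052). The duct transcription factor Tfcp2l1 gave 90.3, 105 and 188 and 10.5, 10.5 and 11.3 (-3.57 ± 0.28 SE, adjusted p = 1.18e-10). Secretory RNA in these libraries moved with the groups, and its part in the other results was not tested.

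**Figure D4:**
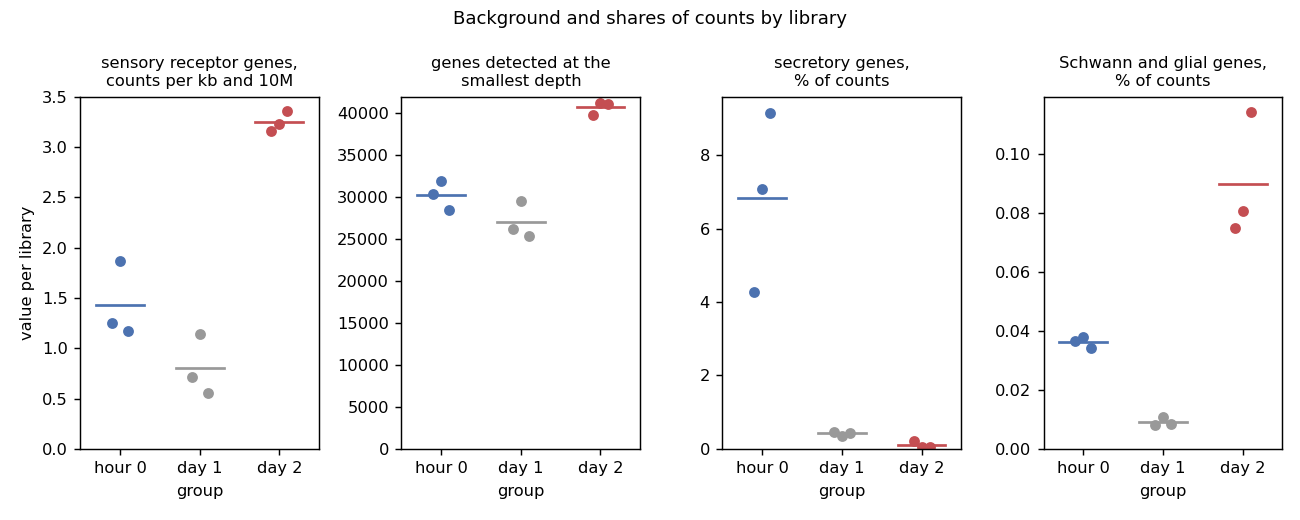
Each library at hour 0, day 1 and day 2 in 4 measures: counts of sensory receptor genes per kilobase and 10000000 nuclear counts, genes detected at the smallest depth, and the percent of counts in secretory and in Schwann cell and glial genes. Day 2 is highest in receptor counts (3.16 to 3.36) and in genes detected (39801 to 41139), and lowest in the secretory share (0.0471% to 0.199%).

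Markers of leukocytes were low in both groups. T and NK cell genes took 0.0020% to 0.0036% of counts at hour 0 and 0.0056% to 0.0057% at day 2. Macrophage, monocyte and dendritic genes took 0.0051% to 0.0094% and 0.0133% to 0.0140%, and neutrophil genes 0.0014% to 0.0021% and 0.0047% to 0.0059%. The 3 shares did not overlap between groups, in the same direction as the receptor background (exact permutation test, two-sided, p = 0.1 each). Ptprc, the common leukocyte antigen CD45, gave 4.26, 10.6 and 6.78 CPM and 8.41, 9.90 and 9.91 and was not called (0.39 ± 0.35 SE, adjusted p = 0.574). The calls were 2 of 18 T and NK genes, 1 of 22 macrophage genes (Itgam), 2 of 10 neutrophil genes (S100a9 and Csf3r), 1 of 11 B cell genes (Pax5) and none lower. Of all genes with a mean under 5 CPM, 2.01% were called higher and 0.38% lower. Gzma and Trbc2 had 0 counts at hour 0 and 28 and 19 at day 2, at least 11.8-fold and 8.04-fold higher against a floor of 3 counts over the group. S100a9 had 2 and 60 counts, a ratio of 38.1 (counting interval 10.1 to 322). Of these calls Pax5, Csf3r, Itgam and Trbc2 were lost in 6, 5, 4 and 6 of 6 fits that left out 1 library, and Gzma in 1 (adjusted p = 0.0516 without hour 0 replicate 12). Of 16 blood endothelial genes 0 rose and 2 fell (Tek and Plvap), and of 9 lymphatic endothelial genes 1 fell (Pard6g). Lpl, the lipoprotein lipase of adipocytes and some stroma, fell from 927, 838 and 813 CPM to 160.3, 147 and 197 (-2.35 ± 0.19 SE, adjusted p = 2.62e-10).

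Schwann cell and glial genes were higher as a share of counts at day 2, 0.0747% to 0.114%, than at hour 0, 0.0342% to 0.0379%. Of 13 such genes 5 rose and 1 fell. The low-affinity neurotrophin receptor Ngfr gave 20.7, 16.8 and 25.4 CPM at hour 0 and 97.7, 108 and 207 at day 2 (2.71 ± 0.33 SE, adjusted p = 3.67e-07). The adhesion molecule L1cam gave 15.7, 21.9 and 27.1 and 84.0, 72.6 and 112 (2.05 ± 0.28 SE, adjusted p = 2.80e-06). The glial filament Gfap gave 6.29, 6.46 and 6.78 and 20.3, 25.8 and 27.6 (1.92 ± 0.51 SE, adjusted p = 0.0081). The neuregulin receptor Erbb3 (1.19) rose. The glial cadherin Cdh19 fell from 72.5, 61.7 and 67.0 CPM to 32.0, 39.7 and 43.0 (-0.81 ± 0.19 SE, adjusted p = 0.0027). The transcription factor Sox10 is on this list and also on that of epithelial and myoepithelial genes, so its level is not glial alone. It gave 52.6, 59.5 and 51.2 CPM and 64.9, 63.0 and 82.7 and was not called (0.37 ± 0.30 SE, adjusted p = 0.512). The 5 largest rises from day 1 were Aatk, Foxd3, Sema4f, Klk9 and L1cam, of which only L1cam is on the glial list. Aatk was not called against hour 0 with TMM (0.92), and the kallikrein-related Klk9 is described further below. Sema4f, a semaphorin, went from 2.03, 3.29 and 0.910 CPM at hour 0 to 34.3, 32.2 and 40.9 at day 2 (4.13 ± 0.48 SE, adjusted p = 2.76e-07). Foxd3, a neural crest factor, went from 2.13, 2.95 and 2.07 to 12.5, 11.7 and 15.8 (2.48 ± 0.63 SE, adjusted p = 0.0059).

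Day 1 shows where day 2 lies in the course. The comparison of each day with hour 0 shares the hour 0 libraries. The 2 sets of fold changes are given side by side and the days are tested against each other directly. Of the well-counted genes 1982 were higher and 3046 lower at day 2 than at day 1 (37.2%, 14.7% and 22.5%). This balance turned with the scaling: library totals gave 2802 higher and 1256 lower, DESeq2 size factors 2562 and 1658, and the DESeq2 Wald test 2819 and 1901. Interferon-responsive genes were often below their day 1 level: of the interferon-gamma-responsive genes 17 of 22 and of the MHC class I genes 21 of 22 were lower at day 2 than at day 1, and 0 were higher in either group. With library totals 13 and 17 were lower, and 1 interferon-gamma-responsive gene was higher. Gbp2 gave 1628, 3396 and 1248 CPM at day 1, a log2 difference of day 2 from day 1 of -1.75 ± 0.30 (SE, adjusted p = 1.43e-04). H2-K1 gave 3167, 3433 and 2861 at day 1, a difference of -0.97 ± 0.20 (SE, adjusted p = 0.0010). Of the type I genes 17 of 30 were lower than at day 1 (7 with library totals), while Rsad2 (596, 460.2 and 648 CPM at day 1; difference 0.04, adjusted p = 0.897) and Mx1 (0.13, adjusted p = 0.694) were not called. Cxcl13 stood at 589, 567 and 327 CPM at day 1, a difference of -2.44 ± 0.30 (SE, adjusted p = 1.16e-06). Saa3 stood at 3194, 2216 and 1424 (-2.05 ± 0.34 SE, adjusted p = 8.87e-05).

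Stress chaperones were lower at day 2 than at day 1. Hsp90aa1 gave 257, 187 and 399.6 CPM at hour 0, 1074, 1164 and 929 at day 1 and 286, 199 and 242 at day 2, a difference between the days of -2.12 ± 0.22 (SE, adjusted p = 7.63e-08). In all, 12 of 14 heat-shock genes were lower than at day 1, with TMM and with library totals. Of the unfolded protein response genes 16 of 21 were lower and 0 higher, and 9 were lower with library totals. C3 gave 8629, 16429 and 6745 CPM at day 1 and was lower at day 2, with a difference of -1.97 ± 0.28 (SE, adjusted p = 9.75e-06).

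Many glial, matrix and cell cycle genes moved the other way between the days. The receptor background, measured as above, was 0.550 to 1.14 at day 1 and 3.16 to 3.36 at day 2. Leukocyte genes, most of them not well counted, also had higher medians at day 2, but most were not called. Called higher were 3 of 11 B and plasma cell, 2 of 18 T and NK cell and 2 of 10 neutrophil genes. Of 22 macrophage, monocyte and dendritic genes 6 were called higher. In each of these lists 0 were lower. Over all genes tested 12.0% were higher than at day 1. The median differences of the lists were 2.40 (B and plasma cell), 1.89 (T and NK cell), 1.37 (neutrophil) and 1.495 (macrophage, monocyte and dendritic). The median differences of cell cycle and matrix genes were 1.09 and 0.487. With the receptor background subtracted, 1724 well-counted genes were higher and 2407 lower than at day 1, against 1982 and 3046 without it. The part of the background in the rises of single gene groups was not tested. Of 13 Schwann cell and glial genes 12 were higher at day 2 than at day 1 and 0 lower, with a median difference of 3.41. Sox10 gave 5.24, 6.88 and 7.70 CPM at day 1, below every library of hour 0 and day 2. Ngfr gave 6.93, 20.8 and 6.20, a difference of 3.61 (4.39 without day 1 replicate 14), and L1cam 3.54, 3.83 and 5.83, a difference of 4.34. For L1cam every day 1 library lay below every library of the other 2 groups. Of 35 cell cycle genes 14 were higher than at day 1 and 3 lower. Mki67 gave 8.86, 4.53 and 7.55 CPM at day 1 (2.74 ± 0.31 SE, adjusted p = 4.54e-07). Cdkn1a, one of the 3 lower genes, gave 196, 67.3 and 182 (-1.12 ± 0.26 SE, adjusted p = 0.0029). Of the 31 matrix genes 13 were higher and 4 lower than at day 1. Col15a1, from the resting fibroblast genes, stood at 64.7, 54.6 and 101 CPM on day 1 (2.46 ± 0.24 SE, adjusted p = 3.16e-08). Gsn fell further, from 4548, 4624 and 3876 CPM at day 1 to its day 2 level (-2.03 ± 0.23 SE, adjusted p = 3.40e-07). So did Prol1, a secretory gene (246, 176 and 249 CPM at day 1, 48.1, 14.4 and 5.01 at day 2; -3.34 ± 0.48 SE, adjusted p = 1.29e-05, and -4.53 without day 2 replicate 16).

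**Figure D5:**
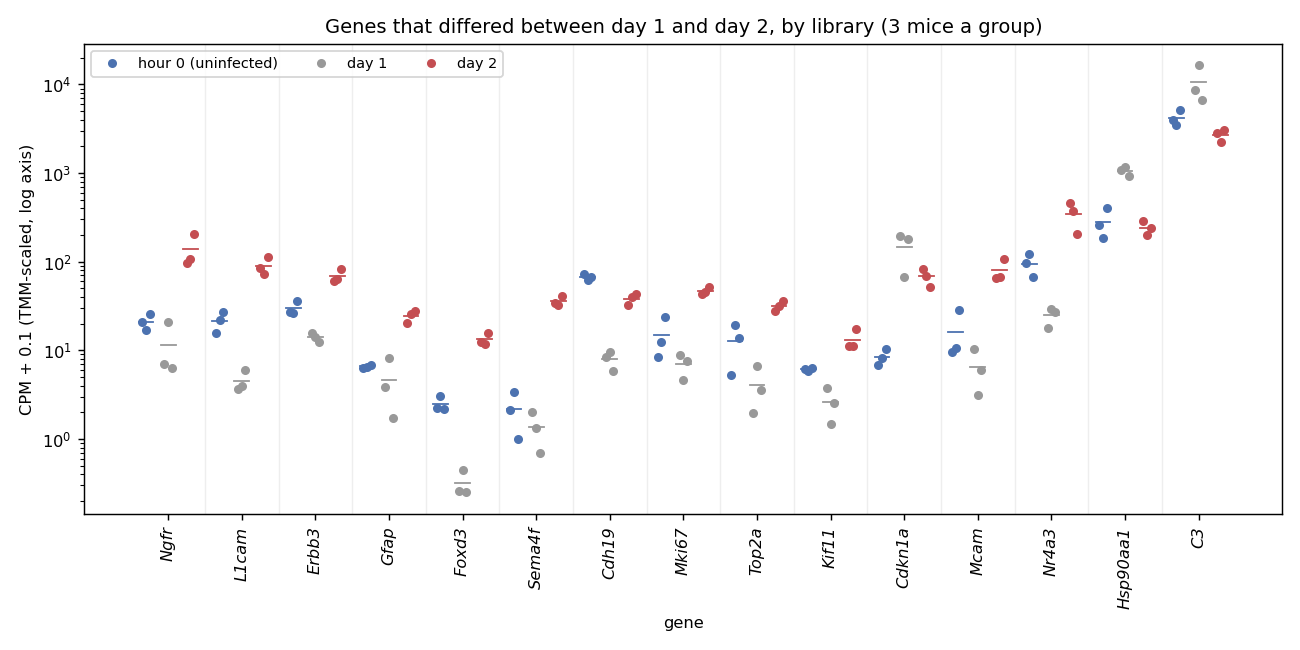
TMM-scaled CPM plus 0.1 (log axis) of 15 genes in each library at hour 0, day 1 and day 2, chosen for a change between the days; points are libraries and bars are group means. L1cam is lowest at day 1 in all 3 libraries, and Hsp90aa1 is highest there, at 929 to 1164 CPM.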

How the data were processed

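Gene expression was measured by RNA sequencing of sorted stromal cells. As deposited by the authors, each library has its own table of unnormalized read counts by Ensembl identifier. The submitters' processing notes name FastQC, STAR, Subread and DESeq2 and the build mm10. Versions, strand setting and the handling of multi-mapped reads are not given in the sources used here. Identifiers were matched to GENCODE M21 (55141 of 55401; the other 260 hold 0.0241% of counts), and coordinates are on GRCm38.

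The counts of 18 libraries in 6 groups entered 1 model in edgeR 4.0.16, run in R 4.3.3, with TMM scaling, filterByExpr with a minimum count of 10 and total of 15, quasi-likelihood F tests, and Benjamini-Hochberg adjustment over 27525 genes with a threshold of 0.05. Printed CPM are TMM-scaled, SE is the log2 fold change divided by the square root of F, and well counted means 5 CPM of the library total in 3 of the 6 libraries compared. Library measures were compared with the exact permutation test (scipy 1.17.1). Depth ranged from 4398234 to 10619144 counts over the 6 libraries. Intervals are 95% and exact, and they and floors cover counting error only.

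On simulated data (27525 genes, day 2 against hour 0) the test recovered 44% of 100 genes changed 2-fold and 82% of 100 changed 4-fold, with 8 false calls. The changed genes were well counted and split evenly between rises and falls, and all others kept their hour 0 mean at day 2. The simulation thus held no shift in background or in the balance of directions. Its false calls do not measure errors from these. The members and gene lists were chosen with earlier results of these data known. Genes were named by rule: the 15 largest rises and 15 largest falls (called, well counted, at least 10 CPM in the higher group, no overlap), the 3 most abundant and the 3 most changed members of each list, the 10 most abundant genes of each group, 11 fixed genes, and the 5 largest rises and falls from day 1, without gene models, pseudogenes and receptor segments. Other list members named were chosen after their values were seen. Some genes that entered the tests and counts are not reported here by name. Alternatives were DESeq2 1.42.0 (size factors and Wald test), limma 3.58.1 (voom), library totals, TMM on well-counted genes, other filters, fewer libraries in the fit, a test against a fold of 1.5, subtraction of the receptor background, and leaving out each library.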

Additional observations from a re-analysis of the deposited data

Results flagged for a closer look

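For the 14 genes named here the change from hour 0 was called in opposite directions at day 1 and day 2. The 2 comparisons share the hour 0 libraries. The difference between the days was itself called by edgeR for each of these genes. That call follows largely from picking genes with opposite changes and is no separate support. The share of all genes with this pattern is not given here. Ngfr, L1cam, Erbb3 and the neural crest gene Foxd3 were below hour 0 at day 1 and above it at day 2, while 7 of 13 glial genes were not called at day 2 against hour 0 and Cdh19 was lower. The log2 difference of day 2 from day 1 was 3.61 for Ngfr (4.39 without day 1 replicate 14), 4.34 for L1cam, 2.31 for Erbb3 and 5.86 for Foxd3, whose day 1 libraries gave 0.161, 0.348 and 0.150 CPM. The glial share of counts ran from 0.0079% to 0.0108% at day 1 against 0.0747% to 0.114% at day 2.

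The proliferation genes Mki67 (2.74), Top2a (3.00) and Kif11 (2.37) had the same course. So did Mcam, a mural and endothelial adhesion molecule (3.63), Nr4a3, an immediate-early nuclear receptor (3.81; 95.7, 121 and 67.7 CPM at hour 0, 17.6, 29.3 and 27.1 at day 1, 460.5, 375 and 206 at day 2), and the kallikrein-related gene Klk9 (4.71; 0.564, 1.31 and 0.523 CPM at day 1, 17.7, 17.8 and 27.2 at day 2).

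Genes with the opposite course, above hour 0 at day 1 and below it at day 2, were Coch, which encodes cochlin (12.1, 5.78 and 15.7 CPM, 34.0, 108 and 26.9 and 3.31, 2.98 and 6.57; difference -3.69), Ifi30 (-1.95), the co-chaperone Dnaja1 (-1.88) and the complement protease C1ra (-1.46). For Coch and Ifi30, day 1 replicate 14 stood apart from the other day 1 libraries, at 108 and 37.5 CPM. Several of these day 2 calls against hour 0 rested on single libraries. Of 6 fits that each left out 1 library of day 2 or hour 0, Kif11 was not called in 6 (adjusted p up to 0.230 without day 2 replicate 18), C1ra in 5 (0.218 without day 2 replicate 17), Coch in 4 (0.239 without hour 0 replicate 12), Top2a in 3 (0.138 without hour 0 replicate 10) and Dnaja1 in 3 (0.171 without hour 0 replicate 12). With library totals Coch (adjusted p = 0.164), Dnaja1 (0.328), C1ra (0.603) and Ifi30 (0.0581) were not called. The day 1 calls against hour 0 were not recomputed without single libraries.

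Counts in 1505 sensory receptor genes, which belong to none of the gene groups, had a mean of 3.25 per kilobase and 10000000 nuclear counts at day 2, above the hour 0 mean of 1.43 ± 0.384 (SD, n = 3). The day 1 libraries gave 0.550 to 1.14, so genes that rose from day 1 to day 2 rose together with this background.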

How the results depend on the processing

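No paired analysis was possible because the replicate numbers run from 1 to 18 without repeat, so no number is shared between groups. The counts of called genes moved with the scaling and the test. Against 1409 genes higher, the DESeq2 Wald test gave 2291, library totals 2557, limma-voom 3831 and the test against a fold of 1.5 725; against 2652 lower, DESeq2 size factors gave 1752, library totals 1277 and the fold of 1.5 1143. Among well-counted genes, 1185 higher became 2082 with the Wald test, 2233 with library totals and 631 with the fold of 1.5, and 2614 lower became 1728 with size factors, 1261 with library totals and 1127 with the fold of 1.5. Higher genes were 31.2% of the well-counted calls, 40.8% with TMM on well-counted genes, 49.5% with size factors and 63.9% with library totals. Against day 1, the 3046 well-counted genes lower became 1901 (Wald test), 1658 (size factors), 1256 (library totals), 4789 (no filter) and 4624 (only the 2 groups fitted). Leaving out 1 library gave 1280 to 2267 higher and 1876 to 3280 lower than at day 1, the lowest counts without day 2 replicate 18 and without day 2 replicate 17, with 1299 higher without day 1 replicate 13 and 1291 without day 2 replicate 17. Of the members of the 22 response lists 182 were higher and 97 lower, and 63 were lower with the fold of 1.5. The cause of these shifts was not tested.

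Of 195 genes named by rule 144 were called, and 118 of these kept the call under all 17 alternatives, 6 of which left out a library. Calls lost per alternative ran from 1 (no filter) to 23 (fold of 1.5), with 11 for library totals and 10 for size factors, and no call of the comparison with hour 0 turned its direction. Between the days, 2 MHC class II genes reversed without day 1 replicate 14; leaving out each library of the 2 days in turn gave -1.89 to 0.0536 for H2-Ab1 and -1.01 to 1.25 for H2-Aa. Of genes under 5 CPM 2.01% were called higher and 0.38% lower, against 17.26% and 37.36% above 100 CPM; the receptor background differed between these levels too, and the part of depth was not tested.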

Other observations

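The genes of this section are outside the lists and were chosen after their values were seen. They are single genes, and no test of a gene group stands behind them. The count of clock genes below was made on genes chosen in this way. Tubb3, the neuronal beta-tubulin, gave 0.871, 0 and 2.32 CPM at hour 0 and 30.8, 22.9 and 39.0 at day 2 (4.77 ± 0.56 SE, adjusted p = 1.65e-07). Gap43, a growth-cone protein also made by Schwann cells after injury, gave 1.06, 0.227 and 0.414 and 12.8, 11.9 and 14.6 (4.49 ± 0.69 SE, adjusted p = 1.68e-05). The neurotrophic factor Gdnf gave 0.580, 5.32 and 1.74 and 24.0, 30.9 and 22.8 (3.39 ± 0.46 SE, adjusted p = 1.92e-06). At day 1 their log2 fold changes against the same hour 0 libraries were 2.62, 1.16 and 2.89. Other single genes that rose were the metallothioneins Mt1 (75.9, 73.1 and 101 CPM, then 387, 283 and 199.9; 1.80 ± 0.28 SE, adjusted p = 1.29e-05) and Mt2 (2.67 ± 0.31 SE, adjusted p = 1.87e-07), the hypoxia factor Hif1a (1.23 ± 0.20 SE, adjusted p = 2.85e-05), the lipase inhibitor Angptl4 (2.26 ± 0.35 SE, adjusted p = 1.57e-05) and heme oxygenase, Hmox1 (1.73 ± 0.25 SE, adjusted p = 4.15e-06). Also higher were Acod1, which makes itaconate (1.16, 0 and 1.74 CPM, then 25.2, 27.5 and 24.3; 4.64 ± 0.53 SE, adjusted p = 1.09e-07), and osteopontin, Spp1 (20.0, 25.0 and 5.63, then 447, 219.8 and 442; 4.46 ± 0.55 SE, adjusted p = 4.63e-07). The transcription factor Cebpb, an activator of acute-phase genes, rose from 81.1, 88.1 and 79.9 CPM to 505, 363 and 277 (2.20 ± 0.24 SE, adjusted p = 3.46e-08). Further large falls were in the extracellular proteins Ltbp4 (1021, 689 and 906 CPM, then 32.5, 26.5 and 61.7; -4.43 ± 0.26 SE, adjusted p = 4.62e-13), Itih5 (1783, 1424 and 1574, then 72.3, 73.5 and 76.4; -4.43 ± 0.22 SE, adjusted p = 2.62e-14) and the laminin chain Lamc3 (559.7, 508 and 454, then 27.5, 23.6 and 28.3; -4.26 ± 0.28 SE, adjusted p = 3.51e-12).

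Among 12 genes of the circadian clock, also chosen after their values were seen, 4 were lower and 3 higher. Over all genes tested 9.63% were lower and 5.12% higher, and over well-counted genes 19.3% and 8.76%. The count describes these 12 genes only. The activators Npas2 (128, 97.6 and 96.2 CPM at hour 0, 13.4, 10.4 and 14.8 at day 2; -3.06 ± 0.20 SE, adjusted p = 4.01e-12), Arntl (84.3, 85.4 and 93.9, then 21.6, 17.4 and 22.2; -2.10 ± 0.22 SE, adjusted p = 1.86e-08) and Clock (-1.10 ± 0.16 SE, adjusted p = 4.33e-06) fell, as did the repressor Nr1d1 (-0.87 ± 0.19 SE, adjusted p = 0.0014). The repressors Per1 (99.2, 167 and 128, then 340.3, 321 and 197; 1.12 ± 0.23 SE, adjusted p = 6.82e-04) and Per2 (1.63 ± 0.28 SE, adjusted p = 8.12e-05) and the output factor Dbp (1.23 ± 0.35 SE, adjusted p = 0.0141) rose. Cry1, Per3, Nr1d2, Tef and Ciart were not called. The Nr1d1 call was lost with library totals and the Dbp call without hour 0 replicate 11 or 12, and both with the fold of 1.5. The hour of day at which the glands were taken is not given in the sources used here, so clock time and the groups cannot be told apart.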
